A study of Sus scrofa with 6 samples.

Results

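The regions described here are 1 kb windows of the pig genome that gave more immunoprecipitated DNA in every library of 7-year-old (MA) muscle than in any library of 0.5-year-old (Young) muscle. Longissimus dorsi muscle of 6 healthy female Jinhua pigs, 3 MA and 3 Young, was profiled by MeDIP-seq. Each library came from 1 animal, so the 3 libraries of an age are biological replicates, and no treatment or transgene was involved. The libraries held 34801285 to 44341673 fragments. Each fragment was assigned by its midpoint to a 1 kb window of chromosomes 1 to 18 of the Sscrofa9.2 assembly, and counts were scaled to the mean library total. Values below are these scaled fragments per window unless stated otherwise. Windows were tested if the mean over the 6 libraries was at least 10 and every library reached 2. The gaining windows were chosen by measured depth: the lowest MA value had to be at least 1.3 times the highest Young value. Of 2136640 windows, 906347 were tested and 7619 gained, which is 0.841% of the tested windows. The mirror rule found 6525 losing windows (0.72%).

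Methylation of cytosine, mostly at CpG sites, marks silent promoters and repeats and is also found along the bodies of active genes. In MeDIP-seq, sonicated DNA is pulled down with an antibody to methylated cytosine, so the number of fragments at a locus rises with its methylation and with its CpG density. Skeletal muscle holds fibre nuclei together with satellite, endothelial, connective tissue and fat cells, and a change in the share of a cell type cannot be told apart from a change within its cells in whole tissue.

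In gaining windows the median depth was 25.9, 25.8 and 27.6 in MA 1, MA 2 and MA 3, and 13.7, 12.5 and 12.5 in Young 1, Young 2 and Young 3. Over all tested windows the 6 medians lay between 25.0 and 26.6. MA depth in the gaining windows was thus near the middle of the tested windows, and Young depth lay below it. This refers to windows that passed the depth filter, since only 909224 of the 2136640 windows had a mean of 10 or more. Losing windows were the mirror of this, with medians of 12.5 to 13.4 in MA and 26.2 to 27.4 in Young. Before scaling, the median gaining window held 25 to 29 fragments in an MA library and 11 to 15 in a Young library. The median ratio of the MA mean to the Young mean was 1.90, against 1.02 over all tested windows. The rule fixed this direction, so the ratio describes the windows and tests nothing. The gaining windows together took 0.615% to 0.657% of the fragments of each MA library and 0.326% to 0.342% of those of each Young library. Replicates scattered less here than elsewhere, as a rule on extremes requires, with a median coefficient of variation of 12.8% among MA and 15.4% among Young libraries against 20.2% and 18.3% over all tested windows. MA 1 was the lowest MA library in 41.9% of gaining windows, and Young 1 was the highest Young library in 40.3%.

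**Figure D1:**
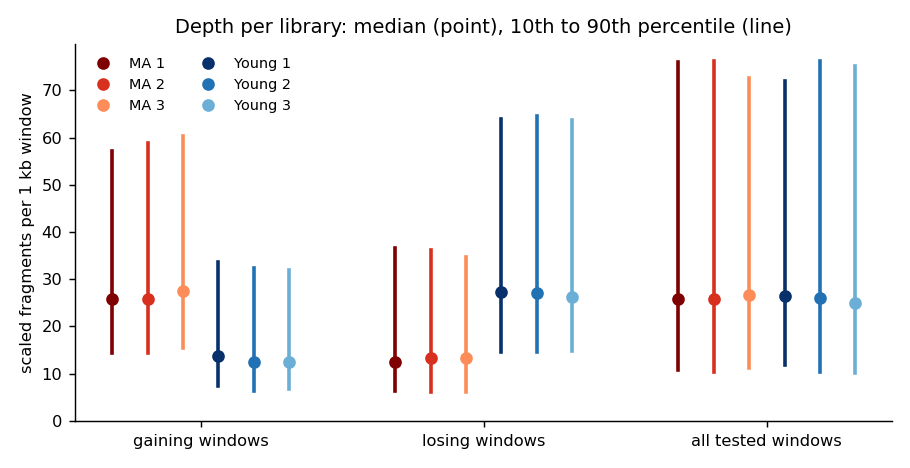
Scaled fragments per 1 kb window (y axis) in each library for gaining, losing and all tested windows; points are medians over windows and lines run from the 10th to the 90th percentile. MA medians in gaining windows (25.8 to 27.6) lie close to those of all tested windows, whereas Young medians (12.5 to 13.7) lie below. Losing windows show the mirror, with MA medians of 12.5 to 13.4 and Young medians of 26.2 to 27.4.

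The ratio of the MA mean to the Young mean was 1.5 or more in 7290 gaining windows (95.7%) and 2 or more in 3056 (40.1%). By the measure of the rule, the lowest MA value over the highest Young value had a median of 1.41, 2402 windows (31.5%) reached 1.5, 397 (5.21%) reached 2 and 26 reached 4. Just inside the limit, chr7:94353001-94354000 had 36.6, 58.8 and 45.0 in MA and 13.7, 28.2 and 18.2 in Young, and chr14:138600001-138601000 had 73.2, 73.2 and 92.1 against 52.9, 56.3 and 43.2. Just outside it, chr14:76579001-76580000 had 58.9, 70.1 and 58.3 in MA and 41.97, 44.9 and 42.1 in Young. The other window just outside, chr1:267859001-267860000 within the collagen gene COL27A1, had 47.3, 66.0 and 60.4 against 34.7, 31.3 and 36.4. These windows were picked as the nearest to the limit by the measure of the rule, so their closeness in it is fixed by that choice. Whether the limit marks a step in the data was not tested.

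The number of gaining windows was also set beside the other ways to divide the same libraries. Dividing the 6 libraries into 3 and 3 in the other 9 ways gave 1624 to 6552 windows in 1 direction, with a median of 2375.5 over 18 directions. Counting both directions, the age division gave 14144 windows. The division of MA 1, Young 2 and Young 3 against MA 2, MA 3 and Young 1 came next with 12435, and the other 8 gave 4034 to 7591. These divisions share libraries and are given as a description. The excess of gaining over losing windows depended on the scaling, since TMM factors gave 6669 gaining and 7455 losing windows.

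Depth was also compared in libraries that had no part in the choice. Windows were chosen with 2 MA and 2 Young libraries, and the remaining MA and Young library were then compared in them, for all 9 such pairs. The choice found 25338 to 53066 windows with a median ratio of 1.73 to 1.77 in the libraries that chose them. In the pair left out, the MA library was higher in 51.4% to 69.4% of these windows (median 64.1%), against 45.2% to 59.7% of all tested windows. It exceeded the share over all windows by 5.85 to 13.2 percentage points. Against tested windows of the same depth class, a comparison added after seeing the data with 10 classes of the mean of the 4 choosing libraries, it was higher by 7.30 to 14.1 points (median 11.5). The 9 pairs come from the same 6 libraries and are not separate observations. The ratio of medians in the left-out pair was 1.02 to 1.32, against 0.975 to 1.10 over all windows. These values lie below the 1.73 to 1.77 of the libraries that chose the windows. They are ratios of medians over windows, whereas 1.73 to 1.77 are medians of ratios per window, so the measures are not the same. The lowest ratios of medians were in the pair of MA 1 and Young 1 and in the pair of MA 2 and Young 1. The medians there were 20.5 against 20.1 and 20.6 against 20.1.

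Gains were a feature of windows with low to middle depth. The mean depth of gaining windows had a median of 19.8 and a 10th to 90th percentile range of 11.4 to 44.7, against 26.0 and 12.0 to 73.4 for all tested windows. Between 1.13% and 1.19% of windows gained in each of the lowest 3 of 10 equal classes of mean depth, and 0.156% in the highest class. Losing windows followed the same slope, from 1.07% in the lowest to 0.188% in the highest class. A window of low depth varies more by sampling alone, and how much of the slope comes from this was not tested. In 1429 gaining windows (18.8%) every Young library was below 10.

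**Figure D2:**
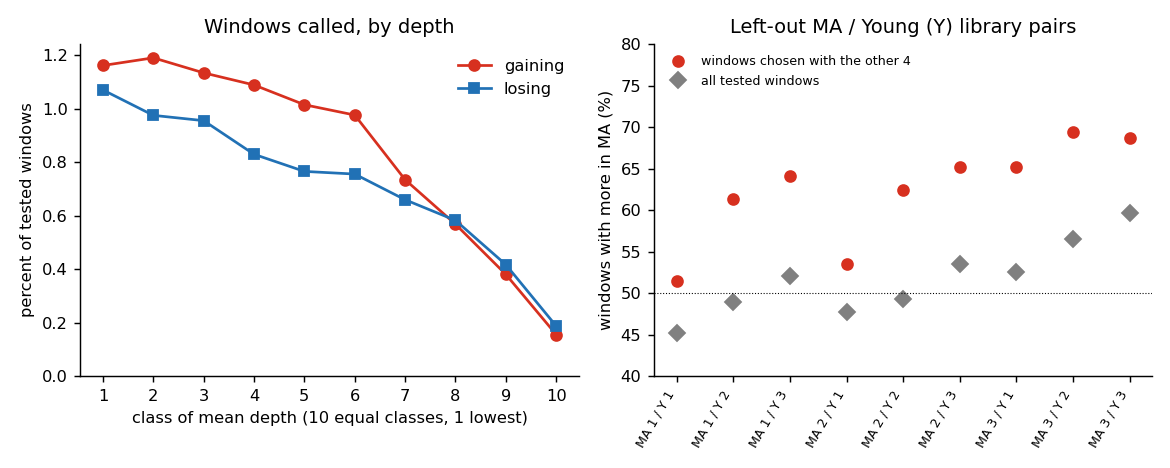
Left, percent of tested windows that gained or lost in each of 10 classes of mean depth. Right, for each pair of libraries left out of the choice, percent of windows in which the MA library was higher, in windows chosen with the other 4 libraries (circles, 51.4% to 69.4%) and in all tested windows (diamonds, 45.2% to 59.7%); the y axis starts at 40%.

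Gaining windows were found on all 18 chromosomes. The share of tested windows that gained ran from 0.558% on chromosome 17 to 1.31% on chromosome 5, with 1.11% on chromosome 1. Chromosome 5 also had the highest share of losing windows (1.27%) and chromosome 17 the lowest (0.330%). The outer 5 Mb at both ends of the chromosomes held 742 gaining windows, 9.74% of them, against 11.8% of the tested windows and 9.90% of the losing windows. In these ends 0.695% of tested windows gained, and 0.860% elsewhere. Among windows with a mean of at least 30, the ends held 15.8% of the gaining, 14.8% of the losing and 18.1% of the tested windows, so the gaining windows were again fewer there than the tested windows would give.

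Single windows made up most of the set. The 7619 windows formed 7214 single windows, 176 pairs, 9 runs of 3, 5 runs of 4 and 1 run of 6. The median distance from a gaining window to the next was 117 kb, and 5993 (78.7%) had no other within 10 kb. Adjacency was not particular to the gains, since 5.32% of gaining and 6.82% of losing windows had a neighbour of their own kind. Of 9800 tested windows next to a gaining window, 4.13% gained, against 0.841% of all, and 0.776% lost. Adjacent windows can share a single change that crosses their border, so they are not separate observations. Tested neighbours that did not gain themselves had a higher MA than Young mean in 64.4% of cases, against 53.2% of all windows, with a median ratio of 1.08. The MA mean was above the Young mean in both 500 bp parts of 85.6% of gaining windows. The part with more of the difference held a median of 81.3% of it. These parts make up the count that the rule selected, so a high share is largely fixed by that choice.

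Around the gaining windows the difference was narrow. At the window itself the median of the group means was 26.4 in MA and 13.1 in Young. At 1 kb to the left it was 17.4 and 15.3, and at 20 kb to the left 13.4 and 12.7. In MA the gaining window stood above its neighbours, and in Young it lay below the adjacent window and near the level at 20 kb. The rule selects both the MA peak and the low Young value.

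**Figure D3:**
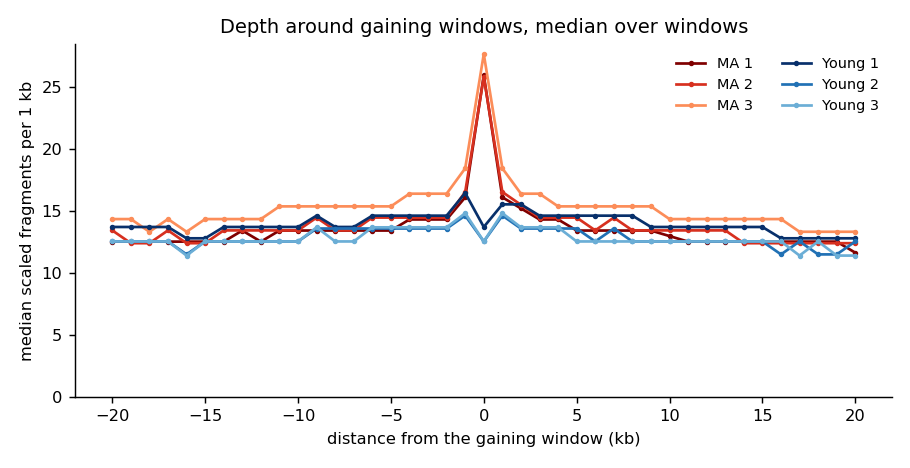
Median scaled fragments per 1 kb (y axis) by distance from the gaining window in kb (x axis), 1 line per library. At distance 0 the MA group mean has a median of 26.4 and the Young group mean 13.1, and within 1 kb the values come to 17.4 and 15.3.

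Groups of gaining windows at most 10 kb apart were joined, and 13 groups with 5 or more held 84 windows and no losing window. Over all tested windows only 0.72% lost, and each group held 7 to 39 tested windows. The absence of losing windows is therefore no sign of a single direction. This also holds for the stretches of 15 and 42 tested windows below. The limit of 5 was chosen after the values were seen. The groups consist of windows chosen for a higher depth in every MA library, so the order of the sums below is largely fixed by that choice and the sums are a description. Distances to genes refer to stretches of genes with a symbol in the study's annotation used here. This is a partial list of places that differed by age, so other genes may lie closer. The longest run was chr10:50103001-50109000, 6 consecutive windows, within a group of 7 gaining of 7 tested windows. Summed over this group of 8 kb, MA 1, MA 2 and MA 3 had 414, 653 and 559.6 fragments and Young 1, Young 2 and Young 3 had 172, 174 and 166. MA 1 had the lowest of the MA sums, and the 3 Young sums were close to each other. The nearest annotated stretch of a gene with a symbol belonged to PIP5K2A, which encodes a phosphoinositide kinase, 254 kb away.

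A second dense group lay in the interval between EVX1 and HOXA5, homeobox genes that bracket the 5′ part of the HOXA cluster in mammals and set positional identity along the body axis. At chr18:44141001-44152000, 26.4 kb from the annotated stretch of EVX1 and 81.6 kb from that of HOXA5, 7 of 7 tested windows gained. Their span held 294, 433 and 483 fragments in MA and 159.7, 149 and 147 in Young. Over the whole 119 kb from EVX1 to HOXA5, 11 of 42 tested windows gained and none lost, with sums of 2011, 2519 and 2322 in MA and 1472, 1662 and 1747 in Young. The 31 windows that did not gain had a median ratio of 1.14. The EVX1 intron window chr18:44114001-44115000 gained as well, with 79.5, 80.5 and 104 in MA and 48.4, 45.9 and 44.4 in Young.

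On chromosome 15, 2 groups lay close together at chr15:76976001-77015000, where 10 of 15 tested windows gained and none lost. The sums were 610.0, 779.8 and 867 in MA and 365, 392 and 368 in Young. The nearest annotated gene with a symbol was KIAA1715, 114 kb away, a gene that neighbours the HOXD cluster in other mammals. At chr1:77840001-77857000, a group of 6 gaining of 10 tested windows reached into NR2E1, an orphan nuclear receptor of neural progenitors. Its span had 435, 474 and 500.2 fragments in MA and 284, 269 and 259 in Young. In these stretches of chromosomes 1, 10, 15 and 18 MA 1 was the lowest of the MA libraries.

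A group of 7 gaining of 10 tested windows at chr4:33081001-33094000 had 429.6, 393 and 646 fragments in MA and 217, 188 and 208 in Young. No annotated stretch of a gene with a symbol lay within 1 Mb of it. At chr4:9925001-9939000, 6 of 10 tested windows gained, with 1327, 1071 and 917 in MA and 399, 669 and 561 in Young. This group lies 17.1 kb from the promoter stretch of GSDMC, a gasdermin. In these groups MA 2 and MA 3 had the lowest MA sums.

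At the scale of 1 Mb, gaining windows were spread thinly with a few dense places. Of 1854 windows of 1 Mb with at least 200 tested windows, 176 (9.49%) had no gaining window, the median was 3 and the 90th percentile 8.7. The 42 with 15 or more held 805 gaining windows (10.6%). In these, 1.62% of tested windows lost depth, against 0.688% in the other 1 Mb windows. Across the 1 Mb windows, which share the 6 libraries, the percent gaining and the percent losing had a Pearson r of 0.326 and a Spearman rho of 0.266. By number of gaining windows the densest place was chr18:3000001-4000000, with 48 gaining and 23 losing of 639 tested windows. Its share of gaining windows (7.51%) was just below that of chr1:175000001-176000000 (7.6%), described further below. From 11 to 14 Mb of chromosome 5, the 3 windows of 1 Mb held 32, 33 and 27 gaining and 17, 17 and 14 losing windows. In this part of chromosome 5 and at chr18:3000001-4000000 windows moved in both directions. The library totals at chr18:3000001-4000000 were 32764, 32342 and 32807 in MA and 31561, 31334 and 31060.4 in Young. Every MA total was above every Young total, with a ratio of means of 1.04, in a place picked for its gaining windows.

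Another pattern was found at chr1:175000001-176000000, where 38 of 500 tested windows gained and none lost. Its totals were 18015, 19786 and 22082 fragments in MA 1, MA 2 and MA 3 and 16254, 15485 and 15564 in Young 1, Young 2 and Young 3. The place was picked for its gaining windows, and the 3 MA totals differed among themselves more than the Young totals did. The shift was broad, because the 462 tested windows that did not gain had a median ratio of 1.24 and 86.4% of them had the higher mean in MA. The 1 Mb before it held 9 gaining and 0 losing windows with a median ratio of 1.10, and the 1 Mb after it 2 gaining and 1 losing window with a median ratio of 1.04. Inside it, chr1:175139001-175179000 had 11 gaining of 39 tested windows, with 1558, 1836 and 1982 fragments in MA and 1283, 1195 and 1185 in Young. The nearest annotated gene with a symbol was CORO2B, an actin-binding coronin, more than 1 Mb away. Few losing windows were also found at chr14:81000001-82000000, with 20 gaining and 1 losing window, and at chr18:44000001-45000000, which holds EVX1 and HOXA5, with 17 and 1. In the first, windows that did not gain had a median ratio of 1.11, against 0.970 in the 1 Mb before it and 1.09 in the 1 Mb after it. Fragment totals there were 19421, 20842 and 23224 in MA and 19578, 18720 and 18413 in Young, so MA 1 was below Young 1. In the second, windows that did not gain had a median ratio of 1.06, against 1.03 in the 1 Mb before it and 1.05 in the 1 Mb after it. Of these windows in the second, 64.6% had the higher mean in MA. Its totals were 20496, 22186 and 22928 in MA and 20098, 20079 and 19924 in Young, with a ratio of means of 1.09, and every MA total was above every Young total.

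**Figure D4:**
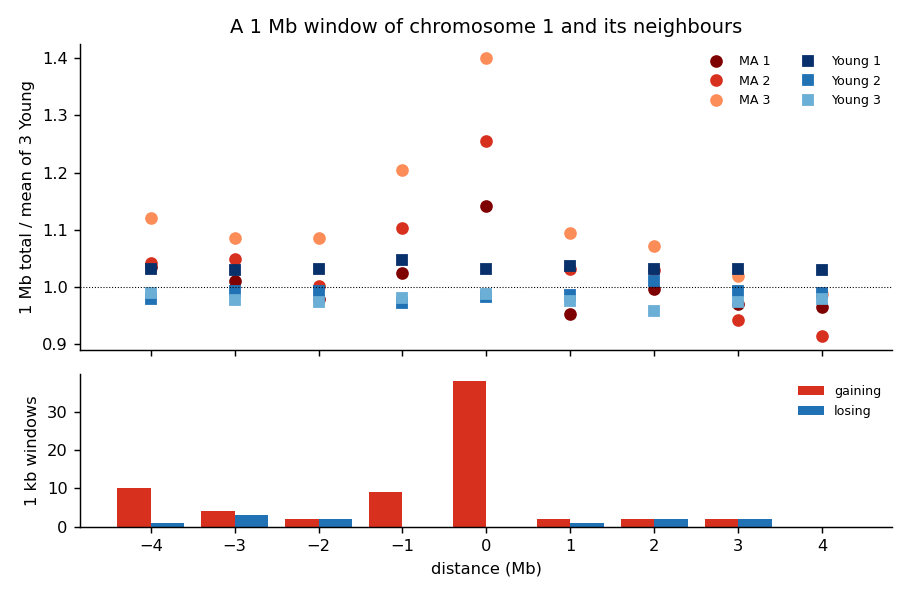
Top, total scaled fragments of each library in 1 Mb windows of chromosome 1 divided by the mean of the 3 Young libraries, by distance in Mb from the window with 38 gaining windows. Bottom, number of gaining and losing 1 kb windows in each; the MA totals lie above the Young totals at distance 0 and come closer to them on both sides.

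The windows with the largest ratios showed little depth in Young muscle. The first was chr9:9524001-9525000, with 53.6, 38.2 and 87.0 in MA and 2.74, 2.09 and 2.28 in Young, so that the lowest MA value was 13.9 times the highest Young value. Neighbours within 5 kb that did not gain had means of 49.3 in MA and 22.3 in Young. Nearby on the same chromosome, chr9:9586001-9587000 had 44.7, 80.5 and 44.0 against 3.65, 5.22 and 6.83, with neighbours at 5.87 and 0.267. The Young values in both windows rest on few fragments, the lowest being 2 and 4 before scaling.

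The second was chr4:9937001-9938000, part of the group near GSDMC, with 256, 243 and 191 in MA and 6.39, 19.8 and 5.69 in Young. At chr9:130501001-130502000 the values were 54.5, 66.0 and 59.3 against 8.21, 7.30 and 7.97, while the neighbours differed little (65.9 in MA and 59.8 in Young). At chr18:776001-777000, 24.8 kb from the ubiquitin ligase gene UBE3C, they were 100.04, 66.0 and 131 against 11.9, 2.09 and 4.55, with neighbours at 68.9 and 66.6. In these last windows the surrounding depth was alike between ages, and the Young libraries had a dip of 1 kb where the MA libraries did not.

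The remaining windows of the 10 differed in their surroundings. At chr5:17448001-17449000 the mean was 77.3 in MA and 9.42 in Young, with neighbours at 31.7 and 26.4, so MA had a peak and Young a dip. At chr1:66513001-66514000 both ages dipped, with means of 22.3 and 2.71 and neighbours at 86.0 and 90.1. The ratio of lowest MA to highest Young was 6.12 at chr5:17448001-17449000, 6.07 at chr1:86159001-86160000, 5.99 at chr1:66513001-66514000, 5.61 at chr3:58583001-58584000 and 5.49 at chr1:79170001-79171000. The last one lies in an intron of GTF3C6, a subunit of the factor that recruits RNA polymerase III, with 31.3, 37.1 and 55.2 in MA and 4.56, 4.17 and 5.69 in Young. No Young library overlapped the MA range in any of the 10, as the rule demands.

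**Figure D5:**
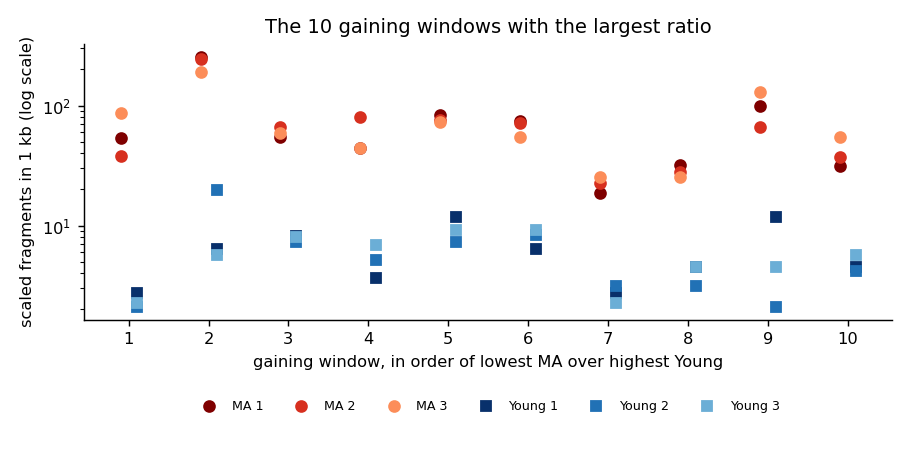
Scaled fragments (log axis) in the 10 gaining windows with the largest ratio of lowest MA to highest Young, 1 point per library, MA as circles and Young as squares. Young values reach 19.8 at most, in the second window, and MA values run from 18.8 to 256.

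Gene names were taken from stretches that the study annotated on these same samples for their age difference, and 1985 stretches of 1272 pig genes were used. Counts inside them are therefore not independent evidence of a direction. Of the gaining windows, 253 (3.32%) could be placed in one of these genes, and so could 490 losing windows. These are 1.74% and 3.37% of the 14541 tested windows so placed, against 0.841% and 0.72% of all tested windows. Among the gaining ones, 168 overlapped a stretch: 134 an intron stretch, 26 an exon stretch and 19 a promoter stretch, where a window can count in more than 1. The windows lying only between 2 stretches of a gene gained in 85 of 12521 cases (0.679%) and lost in 150 (1.198%). The annotated genes thus held more losing than gaining windows, whereas all tested windows held 6525 losing and 7619 gaining. The excess of gains over all tested windows depended on the scaling, with 6669 gaining and 7455 losing under TMM factors. How many windows of each gene list below overlap a stretch was not counted. List shares set beside those of all placed windows are therefore a description.

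PRKAG2, a regulatory subunit of the energy sensor AMPK, had the most gaining windows, 9 of 218 tested with 0 losing. Its gaining windows summed to 684, 785 and 717 fragments in MA and 379.5, 377 and 378 in Young. The whole annotated span of 225 kb did not move with them, with 17698, 17292 and 14971 in MA and 15272, 16458 and 17067 in Young. The strongest was chr18:4714001-4715000 in an intron, with 71.5, 80.5 and 64.4 in MA and 12.8, 10.4 and 10.2 in Young. Its neighbours had means of 69.1 in MA and 71.5 in Young, so the gain was a difference within 1 kb. Further along the same chromosome RHEB, the GTPase that activates mTORC1, had 0 gaining and 9 losing windows of 37.

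KIAA0774 had 6 gaining and 1 losing of 97 windows, and COL27A1, a fibrillar collagen, 5 gaining and 2 losing of 132. The 5 windows of COL27A1 summed to 198, 179 and 246 in MA and 108, 95.97 and 99.01 in Young. Another 12 genes had 3 gaining windows each. With 0 losing windows were CDH23 (29 tested windows), DENND2A (63), ME1 (77), TLL2 (15), TLN2 (47) and TROVE2 (18). SMG6 (113) and SOBP (54) had 1 losing window, CPD (24) and DPP6 (86) had 2, PARK2 (429) had 5 and MYO1D (184) had 7. Over all tested windows 0.841% gained and 0.72% lost, so 0 losing windows among so few tested windows is no result about a gene.

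Other windows in genes with large ratios lay in an intron of the glycosyltransferase-like gene GTDC1, in an intron of METT10D, between stretches of the adenylate cyclase gene ADCY2 and in the promoter of SEPHS1, a selenophosphate synthetase homologue. At SEPHS1, chr15:16228001-16229000 had 63.4, 46.4 and 54.2 in MA and 5.47, 9.39 and 13.7 in Young. At METT10D, chr12:45955001-45956000 had 56.3, 78.4 and 65.5 against 15.5, 15.6 and 12.5. In DPP6, a subunit that modulates potassium channels, chr18:2557001-2558000 had 67.0, 77.4 and 98.2 against 7.30, 20.9 and 12.5. The window between stretches of SOBP and the intron window of WISP3, a matricellular protein gene, had the same ratio of 3.13.

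Among 49 genes of the sarcomere, its attachments and excitation-contraction coupling, 11 of 506 windows gained (2.17%) and 41 lost (8.10%), beside 1.74% and 3.37% of all windows placed in genes, and 8 genes had a gaining window. SYNE1, whose product tethers nuclei to the cytoskeleton, had 2 gaining and 5 losing windows of 72. One gaining window lay in an exon at chr1:15073001-15074000 with 36.6, 35.1 and 36.8 in MA and 10.0, 10.4 and 7.97 in Young. TLN2, a talin that links integrins to actin, had 30.4, 29.9 and 37.9 against 10.9, 16.7 and 12.5 at chr1:112675001-112676000. CACNB3, MYL10, MYOM2, SEPN1 and SORBS2 also had a gaining window. The median log2 ratio of the list's windows was -0.21, against 0.02 over all tested windows and -0.033 in windows lying only between stretches of a gene. The list's windows were placed by stretches annotated for an age difference. Neither background is alike in this, so the value is a description.

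In growth factor and insulin signalling, 2 of 354 windows gained (0.565%) and 23 lost (6.50%) over 32 genes, beside 1.74% and 3.37% of all placed windows. The gaining ones were an intron window of PIK3R5, a regulatory subunit of PI3-kinase gamma, with 17.9, 16.5 and 13.3 in MA and 8.21, 5.22 and 7.97 in Young, and an intron window of the growth factor gene FGF8 with 33.9, 33.0 and 40.9 against 22.8, 12.5 and 13.7. The intron window of FGFR1, a receptor for such factors, fell short of the rule, with 30.4, 38.2 and 28.6 in MA and 22.8, 22.9 and 14.8 in Young. The MA libraries were still the 3 highest. Both intron windows of FOXO3, a transcription factor of muscle atrophy, were losing windows, with 11.3 to 16.4 in MA and 20.98 to 31.3 in Young. The 4 windows on annotated intron stretches of the adaptor gene GRB2 had lower means in MA, and none was called in either direction. Other windows of FOXO3 and GRB2 are not given here.

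TGF-beta family genes had 4 gaining (11.4%) and 1 losing (2.86%) of 35 windows over 13 genes, beside 1.74% and 3.37% of all placed windows. How many of the 35 overlap a stretch annotated for an age difference was not counted. Of all placed windows, 12521 of 14541 lie only between stretches, where 0.679% gained, so the background may be unlike and the shares are a description. TLL2, a tolloid-like metalloprotease of the family that activates latent myostatin, held 3 of the 4 gaining windows. At chr14:112961001-112962000 in its intron the values were 97.4, 103 and 106 in MA and 62.9, 57.4 and 58.0 in Young. BMPER, an extracellular BMP modulator, had 19.65, 26.8 and 24.6 against 11.9, 8.35 and 13.7. The ratios here were modest, 1.34 to 1.55 for lowest MA over highest Young.

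Energy metabolism had 17 gaining and 17 losing of 613 windows (2.77% each) over 40 genes, beside 1.74% and 3.37% of all placed windows, and 9 of the gaining windows were those of PRKAG2. ME1, the cytosolic malic enzyme that supplies NADPH, had 71.5, 53.6 and 56.3 in MA and 24.6, 16.7 and 22.8 in Young at chr1:87179001-87180000. LPL, lipoprotein lipase, had 39.3, 58.8 and 52.2 against 15.5, 11.5 and 18.2 at chr14:3841001-3842000. ACACA, COX10 and NDUFA5 also had a gaining window.

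Ubiquitin and autophagy genes had 6 gaining (0.759%) and 25 losing (3.16%) of 790 windows over 52 genes, beside 1.74% and 3.37% of all placed windows. The share of gaining windows was near the 0.841% over all tested windows. The largest ratio was 1.48 at the ubiquitin-conjugating enzyme gene UBE2H, with 48.2, 45.4 and 41.9 in MA and 28.3, 24.0 and 26.2 in Young. PARK2, a ubiquitin ligase of mitochondrial quality control, had 54.5, 49.5 and 57.3 against 31.9, 34.4 and 28.5 at chr1:7021001-7022000, 1 of its 3 gaining windows beside 5 losing ones. A window shared by USP8 and USP50, and a window at KLHL12, were the others named by the rule.

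Fragment length had no part in the rule. Mean fragment length in gaining windows minus that in all tested windows was -0.0574, 0.248 and 0.439 bp in MA and 0.423, -0.0841 and -0.366 bp in Young. The means were 0.210 ± 0.250 bp (SD, n = 3) in MA and -0.00926 ± 0.400 bp (SD, n = 3) in Young, and a two-sided exact permutation test gave p = 0.4, where 3 against 3 cannot go below 0.1. Against windows of the same mean depth the direction turned, with 0.132 ± 0.0807 bp (SD, n = 3) in MA and 0.218 ± 0.207 bp (SD, n = 3) in Young (exact permutation p = 0.6). Mean fragment length over whole libraries was 252 to 263 bp in MA and 262 to 272 bp in Young, and the ages overlapped. Fragments in gaining windows averaged 257 ± 6.14 bp (SD, n = 3) in MA and 266 ± 4.77 bp (SD, n = 3) in Young (two-sided exact permutation p = 0.2), and over all tested windows the means were also 257 and 266 bp. The part of this in the counts was not tested. Intervals identical to another of the same library made up 0.523% to 0.744% of fragments in gaining windows of MA and 0.393% to 0.708% in Young, against 2.00% to 2.57% over all tested windows. Repeated intervals were counted in the depth that the rule used, so these shares are a description. The difference from all tested windows was -1.66 ± 0.178 percentage points (SD, n = 3) in MA and -1.78 ± 0.112 (SD, n = 3) in Young. Against windows of the same mean depth over the 6 libraries it was smaller, -0.366 ± 0.00496 in MA and -0.587 ± 0.00290 in Young, and the ages did not overlap. These classes do not match the depth of each library. The rule sets Young depth below MA depth in gaining windows, so this separation is not a difference at equal depth. In losing windows the shares ran the other way, 0.475% to 0.671% in MA and 0.776% to 1.12% in Young. With identical intervals counted once, 7611 windows gained.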

How the data were processed

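MeDIP DNA of 6 pigs was sequenced in paired ends by the authors, who removed reads of low quality, used SOAP2 with up to 4 mismatches for alignment to Sscrofa9.2, and describe removing ambiguous reads and reads at repeated locations. The authors deposited the position of every fragment (chromosome, first and last base), with no counts and no normalization. Intervals with identical positions remain in every file and were kept.

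Here fragments were counted by midpoint in 1000 bp windows of 18 chromosomes and scaled by library total, with Python 3.11.15, numpy 2.4.6, scipy 1.17.1, pandas 2.3.3 and matplotlib 3.10.9. The steps were tested on simulated data. Scaling to totals leaves differences in immunoprecipitation strength between libraries in the values. The depth of 11 to 29 fragments per library in the median gaining window limits precision for single windows.

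Libraries were grouped by the labels, which give age and replicate. The rule used the age contrast, so no test of age was run on the gaining windows. Only fragment length was tested, by two-sided exact permutation over the 6 libraries. The same test had been planned for repeated intervals, but these enter the depth the rule used, so they are described with no p. No model was fitted across windows. Windows named are the 10 with the largest ratio, the longest runs, the 1 Mb window with most gaining windows, 2 on each side of the limit, the 10 placed in genes with the largest ratio, up to 4 per gene list, and those of FGFR1, FOXO3 and GRB2. Groups of 5 or more windows, genes with most gaining windows, further 1 Mb windows and the list of developmental regulators were chosen after their values were seen. Gene names came from the study's annotation, of which a part was used. The members, gene lists and tests were chosen with earlier results of these data known. Some windows that the rule would name are not reported here. Sequence, CpG content and repeats of the windows were not analysed here.

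Alternatives covered scaling, depth minimums, ratio, window size and position, repeated intervals, fragment lengths, the replicate block and each library left out, and, added after seeing the data, windows of the same depth class as background for the left-out pairs.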

Additional observations from a re-analysis of the deposited data

How the results depend on the processing

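The number of gaining windows (7619) stayed within 1.5 times of itself under TMM factors (6669), median scaling, autosomal totals, a mean minimum of 5, both library minimums, shifted windows and all 3 interval filters. It was 3744 with a mean minimum of 20, 1951 with 30 and 11763 with none. It was 14819, 2402 and 397 at ratios of 1.2, 1.5 and 2. It was 20508 in 500 bp windows and 371 in 5 kb windows, where 691 lost. With fewer libraries to satisfy, it was 13605 (without MA 3), 15035 (Young 3), 15492 (Young 2), 18053 (MA 2), 20998 (MA 1) and 25171 (Young 1). Without MA 3, 19031 windows lost.

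The replicate block, each MA library against the Young library of its number, gave 19817 windows. The numbers did not pair the libraries, since the deviations from the group means correlated at -0.212, 0.0751 and -0.186. In the replicate block (exact sign-flip permutation) the fragment length difference had p = 0.75.

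The share next to another gaining window was 3.13% with a mean minimum of 30, 4.62% at a ratio of 1.5 and 5.68% to 8.80% with a library left out (8.80% without MA 1). The share in chromosome ends was 15.8% with a mean minimum of 30 and 10.7% at a ratio of 1.5, 2.66% in the outer 2 Mb (4.45% of tested windows), 19.9% in the outer 10 Mb (22.9%) and 7.81% to 10.4% with a library left out. The median ratio was 1.74 with a mean minimum of 30, 2.30 at a ratio of 1.5 and 1.80 to 1.85 with a library left out. The median share in left-out pairs stayed at 62.9% to 68.1%. Against windows of the same mean depth, the fragment length difference (MA minus Young) turned from 0.219 to -0.0861 bp (exact permutation p = 0.6). That of repeated intervals was 0.221 instead of 0.119 percentage points, where the depth of each library was not matched. Leaving out a library gave 0.0260 to 0.472 bp and 0.0321 to 0.188 points.

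Depth limits single windows, since the median gaining window held 11 to 15 fragments in a Young library. The cause of the changes under other settings was not tested, except that ratios, minimums and left-out libraries change by construction how many windows can pass.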

Other observations

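Windows of 13 developmental regulators gained, out of a list of 36 genes. The list itself was drawn up after the values were seen, so it supports no statement on such genes as a group and its shares are a description. Of the 577 tested windows placed in the 36 genes, 15 gained (2.60%) and 3 lost (0.520%), beside 1.74% and 3.37% of all windows placed in genes. MEIS1, GLI2, PAX2, FOXP2, WNT7A, EVX1, FGF8, PBX3 and PRDM1 each had 1 tested window placed in them. MEIS1, a homeobox partner of HOX proteins, had 29.5, 30.9 and 33.8 in MA and 11.9, 4.17 and 10.2 in Young at its promoter stretch (chr3:69346001-69347000). GLI2, a mediator of hedgehog signalling, had 122, 129.97 and 99.2 against 55.7, 62.6 and 55.8 in an intron stretch. In the 2 windows of NR2E1 the sums were 139, 134 and 154 in MA and 75.7, 78.2 and 68.3 in Young. PAX2, a paired-box factor of kidney and eye, had 18.8, 17.5 and 22.5 against 9.12, 8.35 and 11.4. FOXP2 had 33.0, 34.0 and 39.9 against 20.1, 20.9 and 19.3, and WNT7A, a secreted WNT ligand, had 31.3, 37.1 and 37.9 against 22.8, 18.8 and 20.5. EVX1, FGF8, NR6A1, PAX5, PBX3, PRDM1 and TCF4 were the others. In each of the 15 windows the 3 MA libraries were above the 3 Young libraries, as the rule demands.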
